A study of Caenorhabditis elegans with 4 samples.

Results

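The protist-type lysozymes of C. elegans, encoded by lys-1 to lys-10, were followed in whole worms given rifampicin (RIF). Their probe sets were taken by gene symbol alone, as every probe set of the array annotation whose symbol begins with lys-, which leaves out the separate ilys family. The rule gave 11 probe sets of 22548 that are not controls, and they named 10 genes of the 17118 that could be represented by a probe set of their own. Each gene had 1 probe set that names it alone, and the 11th probe set names both lys-5 and lys-6. There were 2 arrays of wild-type N2 worms given RIF and 2 arrays of N2 worms given DMSO, the solvent of the drug, and the labels call the arrays of a group separate biological replicates. Worms of both groups were harvested on day 8 of adulthood from liquid culture, where they were fed heat-killed E. coli OP50 carrying a plasmid vector, a second time on day 5, in the presence of carbenicillin, amphotericin B and FuDr. FuDr blocks DNA synthesis and thereby progeny, and carbenicillin is an antibiotic, so that the controls were treated with an antibacterial drug as well. The labels of the arrays give no dose of RIF, and one field of theirs names RNAi treatments that the titles, the design and the paper do not have. Groups were therefore taken from the titles.

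Lysozymes cleave the peptidoglycan of bacterial cell walls. In C. elegans, which eats bacteria, lysozymes are made largely in the intestine, where they serve both to digest food and to limit infection, and several of them respond to pathogens. The lys family resembles the lysozymes of protists, whereas the ilys family is of the invertebrate type. In the worm, the FOXO factor DAF-16, the p38 MAP kinase pathway and the DBL-1 TGF-beta pathway are known to regulate antibacterial effectors such as these.

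The arrays are Affymetrix expression arrays, and the values are the authors' RMA values on a log2 scale, in which a difference of 1 is a 2-fold change. Below, a probe set or gene rose or fell where limma, fitted over all 22548 probe sets, put it past the threshold of the study, which asks for a 2-fold change or more together with an unadjusted p under 0.05. The array also carries 8 control probe sets for transcripts of yeast and bacteria that the samples lack. These foreign controls read 0.44 to 1.62 pooled over the 4 arrays, which marks the level of an absent transcript. The highest of them read 1.62 and 1.08 on RIF replicates 1 and 2, and 1.17 and 1.10 on DMSO replicates 1 and 2. Median values of all probe sets were 1.90 and 1.85 on the RIF arrays and 1.82 and 1.82 on the DMSO arrays. Across all probe sets, Pearson's r was 0.981 between the RIF arrays, 0.970 between the DMSO arrays and 0.961 to 0.972 for pairs made of a RIF and a DMSO array, a description of the arrays since probe sets are not independent. The DMSO arrays were thus no closer to each other than the closest pair of a RIF and a DMSO array was. In 4 transcripts that check RNA quality (actin, Gapdh, ubiquitin and catalase), the median 5′ minus 3′ difference, lower in more degraded RNA, was -2.39 and -2.37 on the RIF arrays and -1.68 and -3.19 on DMSO replicates 1 and 2. The number of arrays limits the precision throughout, and a two-sided exact permutation test of 2 arrays against 2 cannot give a p under 0.333.

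On RIF treatment, 8 of the 11 lys probe sets fell and 0 rose, where 1.53% of all probe sets fell and 1.14% rose. They stand for lys-1, lys-2, lys-4, lys-5, lys-6, lys-7 and lys-8, or 7 of 10 genes, where 1.55% of all genes fell and 1.27% rose. Among the probe sets brighter than the foreign controls on all 4 arrays, the falls ran from 2.78-fold for lys-1 to 13.3-fold for lys-2. The median log2 difference was -1.48 over the lys probe sets and 0.03 over all probe sets. Both RIF arrays lay below both DMSO arrays in 10 of the 11, which 15.7% of all probe sets do, and lys-3 was the exception, with both RIF arrays above both DMSO arrays, as in 22.2% of all probe sets. The 10 include lys-9, whose groups were 0.018 apart with all 4 values in the foreign control range. They also include the shared probe set beside those of lys-5 and lys-6. No lys probe set passed an adjusted p under 0.05 in limma (Benjamini-Hochberg over all probe sets), which 0.0355% of all did, and the lowest adjusted p in the family was 0.162. An unadjusted p under 0.05 was reached by 9 of the 11 in limma, where 8.47% of all probe sets reached it, and by 5 of the 11 in the methods' t-test, which is unpaired, where 6.66% of all did, with 0 of the 11 after adjustment. Without RIF replicate 1, and likewise in the methods' t-test, 5 probe sets fell, those of lys-2, lys-4, lys-7 and lys-8 and the one that names lys-5 and lys-6. Of all probe sets, 1.35% fell without RIF replicate 1 and 0.577% in the methods' t-test.

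**Figure D1:**
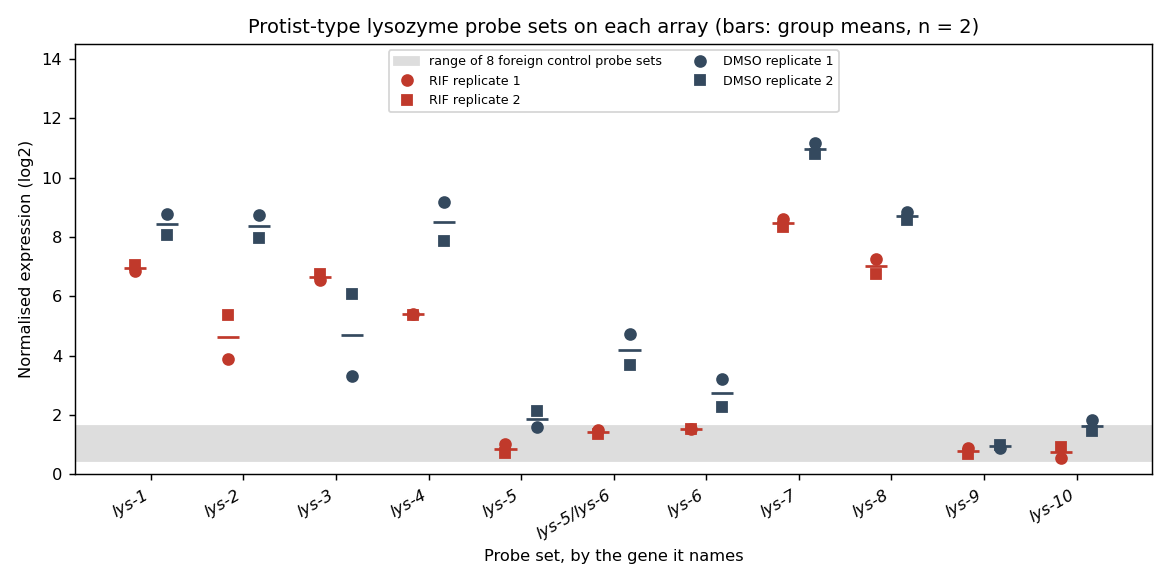
Normalised expression (log2) of each lys probe set on the RIF arrays (red, left of each pair) and the DMSO arrays (dark blue, right), with circles for replicate 1, squares for replicate 2 and bars for group means (n = 2). The grey band is the range of the 8 foreign control probe sets, 0.44 to 1.62. It holds all 4 values of lys-9 and the RIF values of lys-5, lys-6, lys-10 and the probe set that names lys-5 and lys-6. It also holds DMSO replicate 1 of lys-5 and DMSO replicate 2 of lys-10.

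The largest fall relative to its error was that of lys-7, an intestinal lysozyme known as a target of DAF-16 and for its induction by bacterial pathogens. The lys-7 probe set (185557_s_at) read 8.59 and 8.35 on the RIF arrays, against 11.17 and 10.79 on the DMSO arrays. The groups lay well apart, with a gap of 2.20 between the nearest RIF and DMSO arrays and replicate differences of 0.24 with RIF and 0.38 with DMSO. The mean was 8.47 ± 0.17 with RIF and 10.98 ± 0.27 with DMSO (SD, n = 2 each), a 5.69-fold fall (log2 difference -2.51, 95% interval -3.08 to -1.94, unadjusted p = 0.00023 and adjusted p = 0.162 from limma). Only 66 of the 22548 probe sets had a log2 difference as low or lower. The fall of lys-7 was past the threshold without each array in turn, at -2.70 to -2.32.

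The related gene lys-8, also a target of DAF-16 and of the DBL-1 pathway, fell as well, on a probe set (184497_at) without an ending for shared probes. It read 7.26 and 6.76 on the RIF arrays, against 8.84 and 8.59 on the DMSO arrays. The groups did not overlap, and the gap of 1.32 between them was wider than the replicate differences of 0.51 with RIF and 0.25 with DMSO. The log2 difference was -1.70 (standard error 0.24, adjusted p = 0.336 from limma), a 3.26-fold fall, and it ran from -1.96 to -1.45 with each array left out, always past the threshold.

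In the worm, lys-1 is a lysozyme that is induced by Serratia and protects against it when overexpressed. Its probe set (182989_at) read 6.84 and 7.05 on the RIF arrays, against 8.79 and 8.06 on the DMSO arrays. Both RIF arrays were at least 1.01 below both DMSO arrays, and the 2 DMSO arrays differed by 0.72. The log2 difference was -1.48 (standard error 0.30, adjusted p = 0.454 from limma), a 2.78-fold fall. Leaving out RIF replicate 1 gave -1.37, short of the threshold by its p of 0.064, and leaving out DMSO replicate 1 gave -1.11, still past it.

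The gene next to it, lys-2, had the lowest log2 difference of the family. Its probe set (183028_s_at) read 3.88 and 5.36 on the RIF arrays, against 8.75 and 7.96 on the DMSO arrays. The RIF arrays were themselves 1.48 apart, the widest such gap in the family, and both were still 2.60 or more below the DMSO arrays. The mean was 4.62 ± 1.05 with RIF and 8.36 ± 0.56 with DMSO (SD, n = 2 each), a 13.3-fold fall (log2 difference -3.74, 95% interval -5.39 to -2.08, adjusted p = 0.377 from limma). It held past the threshold with each array left out, from -4.48 without RIF replicate 2 to -2.995 without RIF replicate 1, and 16 of the 22548 probe sets had a difference as low or lower.

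The third of these neighbours, lys-3, went against the family. Its probe set (182428_s_at) read 6.55 and 6.74 on the RIF arrays, against 3.33 and 6.07 on the DMSO arrays. The RIF arrays were 0.19 apart, whereas the DMSO arrays differed by 2.74, more than in any other member, and DMSO replicate 2 lay only 0.48 below the nearest RIF array. The log2 difference of 1.95 (standard error 0.97, 95% interval -0.71 to 4.60, adjusted p = 0.666 from limma) did not pass the threshold. It was 0.58 without DMSO replicate 1, not past the threshold, and 3.31 and past it without DMSO replicate 2 (unadjusted p = 0.00058, adjusted p = 0.338 from limma, and 0.338 to 1 over the alternatives). Whether lys-3 differs from lys-1 and lys-2 in its response was not tested.

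**Figure D2:**
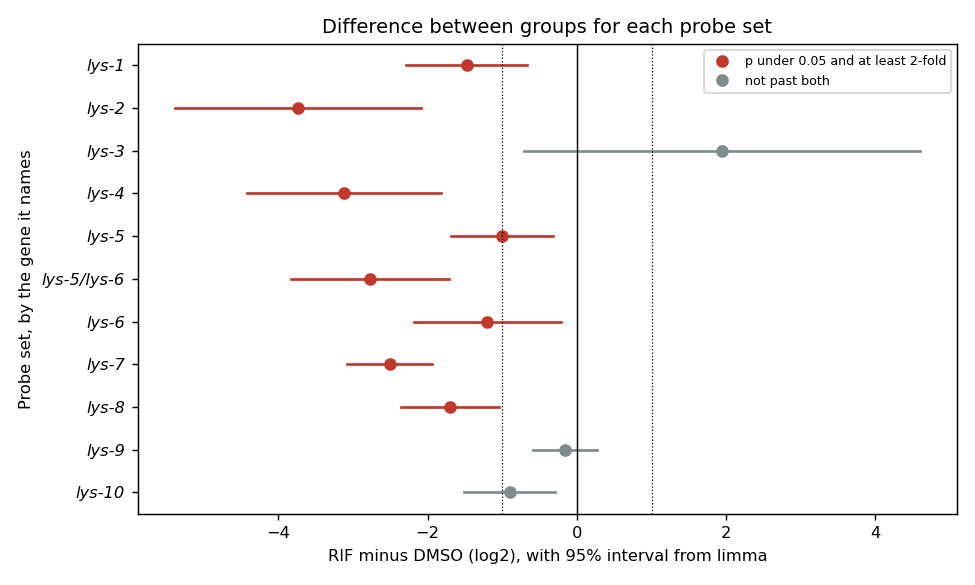
RIF minus DMSO (log2) for each lys probe set, with the 95% interval from limma and dotted lines at a 2-fold change. In red are the 8 probe sets past the threshold, from -3.74 for lys-2 to -1.01 for lys-5, and in grey lys-3 (1.95), lys-9 (-0.16) and lys-10 (-0.90).

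In the RefSeq annotation, lys-1, lys-2 and lys-3 (Y22F5A.4, Y22F5A.5 and Y22F5A.6) follow each other on chromosome V with 0 protein-coding genes between them, and lys-4, lys-5 and lys-6 (F58B3.1, F58B3.2 and F58B3.3) do so on chromosome IV. The annotation is of WBcel235, and positions are not given since the build behind the array is not given in the sources used here. The other members stand alone, lys-7 on chromosome V, lys-8 on II, lys-9 on I and lys-10 on IV. In the run on chromosome V, lys-1 and lys-2 fell and lys-3 did not, whereas all 3 genes of the run on chromosome IV fell. Of these, lys-1, lys-5 and lys-6 did not pass in the methods' t-test. The RIF values of lys-5 and lys-6 lay within the pooled foreign control range. Of the genes on either side of the second run, chosen after the values of the lys genes were seen, dsl-5 had a log2 difference of 0.08 and F58B3.4 of -0.35, and neither passed the threshold.

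In that second run, lys-4 was the gene read above the foreign controls on all 4 arrays. Its probe set (178236_s_at) read 5.42 and 5.38 on the RIF arrays, against 9.17 and 7.87 on the DMSO arrays. The RIF arrays nearly coincided, and the DMSO arrays were 1.31 apart yet at least 2.45 above both. The mean was 5.40 ± 0.02 with RIF and 8.52 ± 0.92 with DMSO (SD, n = 2 each), an 8.70-fold fall (log2 difference -3.12, 95% interval -4.43 to -1.82, adjusted p = 0.356 from limma). It was -2.47 without DMSO replicate 1 and -3.77 without DMSO replicate 2, past the threshold in each case.

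The transcripts of lys-5 and lys-6 were read by 3 probe sets, which share RNA and arrays and are not replicates of each other. The probe set that names both genes (178087_s_at) read 1.48 and 1.38 on the RIF arrays, against 4.72 and 3.69 on the DMSO arrays. Its RIF values lay within the pooled foreign control range and its DMSO values well above it. The value on RIF replicate 2 was still above the highest foreign control of that array (1.08). The log2 difference was -2.77 (standard error 0.39, adjusted p = 0.336 from limma). Set against the highest foreign control on each RIF array, or the measured value where that was higher, the fall in means was 6.52-fold. This bound allows for the foreign controls and not for the spread between arrays. The log2 difference was past the threshold without each array in turn, at -3.29 to -2.26.

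Read alone, lys-6 (178409_s_at) gave 1.54 and 1.54 on the RIF arrays, against 3.22 and 2.26 on the DMSO arrays. Here too both RIF values lay within the pooled foreign control range. That of RIF replicate 2 was above the highest foreign control of its own array (1.08). The fall in log2 units was -1.20 (standard error 0.36, adjusted p = 0.534 from limma). Against the foreign controls the fall in means was 2.23-fold, a bound that again leaves out the spread between arrays. The call was lost without DMSO replicate 1 (-0.72), without RIF replicate 1 (-1.20) and without RIF replicate 2 (-1.20). The probe set of lys-5 alone (178086_at) read 1.01 and 0.71 with RIF, against 1.60 and 2.12 with DMSO. Just 1 of its 4 values lay above the pooled foreign control range. Both DMSO values were above the highest foreign control of their own arrays (1.17 and 1.10), and neither RIF value was. Its log2 difference of -1.01 (standard error 0.25, adjusted p = 0.501 from limma) was just past the 2-fold threshold. Against the foreign controls the fall in means was 1.43-fold, a bound of the same kind. The log2 difference was not past the threshold without DMSO replicate 2 (-0.74), without RIF replicate 1 (-1.16) or without RIF replicate 2 (-0.85). The 3 probe sets gave the same direction and differed in size, and which of the 2 genes supplied the signal of the shared one cannot be told apart here.

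The remaining members were at or near the level of absent transcripts in both groups. For lys-10 (184694_at), values were 0.56 and 0.93 with RIF, against 1.82 and 1.47 with DMSO. Both DMSO values were above the highest foreign control of their own arrays (1.17 and 1.10), though that of DMSO replicate 2 lay within the pooled foreign control range. The groups did not overlap, but the difference of -0.90 (standard error 0.22, unadjusted p = 0.015 and adjusted p = 0.501 from limma) was short of the 2-fold threshold. Since its RIF values lay within the foreign control range, the ratio of means is a bound, 1.23-fold lower with RIF. That bound leaves out the spread between arrays. The difference passed without DMSO replicate 2 (-1.07) and without RIF replicate 2 (-1.08). For lys-9 (179057_at), values were 0.89 and 0.68 with RIF, against 0.91 and 0.98 with DMSO, all within the range of the foreign controls. The difference of -0.16 (95% interval -0.59 to 0.27, adjusted p = 0.835 from limma) did not pass, and a change of lys-9 was not detectable on these arrays.

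**Figure D3:**
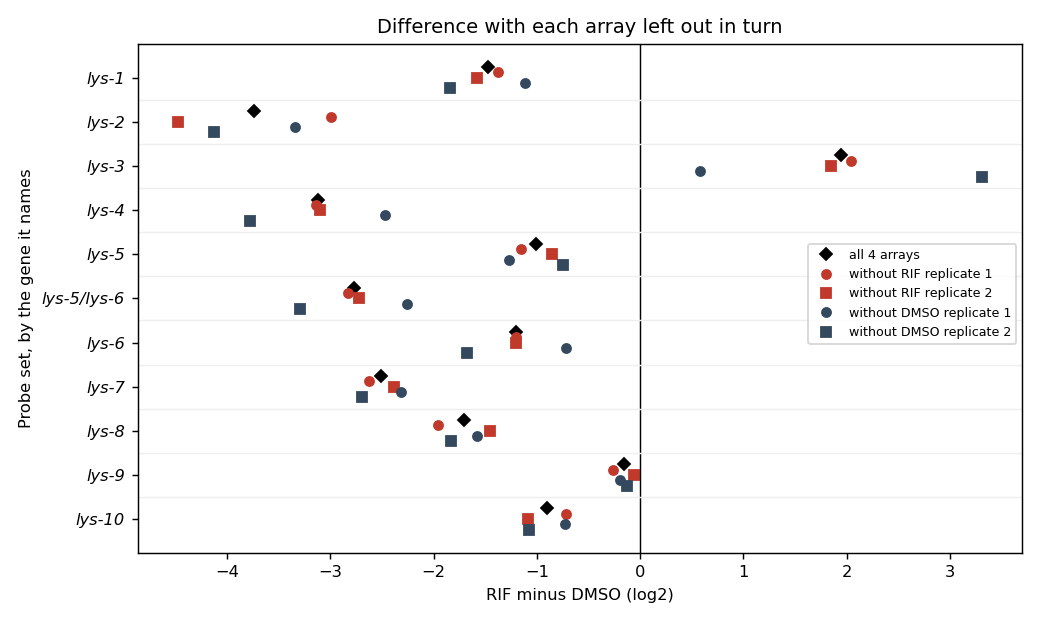
RIF minus DMSO (log2) for each lys probe set with all 4 arrays (black) and with each array left out in turn (red for RIF, dark blue for DMSO arrays, circles for replicate 1 and squares for replicate 2). Values of lys-3 run from 0.58 to 3.31 with 1 DMSO array left out, while those of lys-7 stay between -2.70 and -2.32.

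The DMSO arrays carried most of the spread within the family. The median difference between the replicates of a lys probe set was 0.21 with RIF and 0.72 with DMSO, and over all probe sets it was 0.20 with RIF and 0.24 with DMSO. In 9 of the 11 lys probe sets, all but lys-5 and that of lys-9, DMSO replicate 2 was nearer to the RIF mean than DMSO replicate 1 was, which held for 53.2% of all probe sets. DMSO replicate 2 was also the array with the lowest 5′ minus 3′ value, and the part of RNA quality in these differences was not tested. Without DMSO replicate 2, the median log2 difference of the lys probe sets was -1.83, 8 of them fell and that of lys-3 rose, where 3.26% of all probe sets fell and 1.87% rose. Without DMSO replicate 1 it was -1.27, 7 fell and none rose, where 1.67% of all fell and 2.06% rose.

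**Figure D4:**
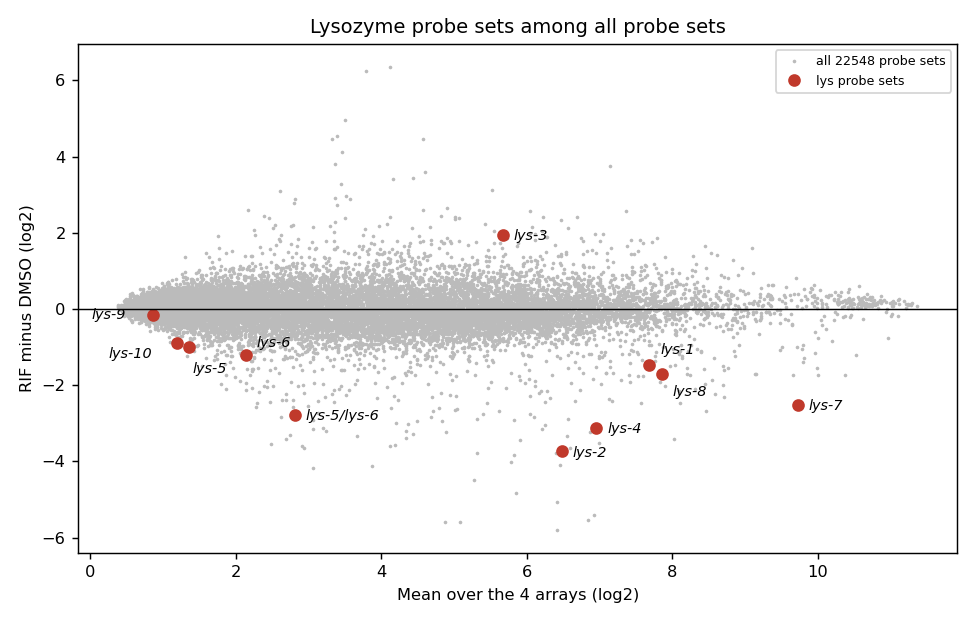
RIF minus DMSO (log2) against the mean over the 4 arrays (log2) for all 22548 probe sets (grey) and the 11 lys probe sets (red, named). The probe sets of lys-2, lys-4, lys-7 and lys-5/lys-6 sit at the lower edge of the cloud, lys-3 (1.95) on its upper side, and lys-9 (-0.16) within it at the dim end.

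The genes with a profile most like that of lys-7, by the root mean square distance between values centred on each gene's own mean over the 4 arrays, were Y49E10.18 (distance 0.10), clec-186 (0.13) and clec-85 (0.14), of which the last 2 encode C-type lectins. Within the family the nearest were lys-8 (0.41) and lys-4 (0.46), and the farthest was lys-3 (2.49). With 4 arrays in 2 groups, such a distance mostly reflects a like difference between RIF and DMSO.

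Among the 6 invertebrate-type lysozymes, 2 fell and 0 rose, where 1.55% of all genes fell and 1.27% rose. The median log2 difference of the list was -0.85, beside 0.03 over all genes. The 2 were ilys-5, whose probe set has an ending for shared probes (_x_at), and ilys-2, whose probe set has none. The values of ilys-5 were 4.33 and 4.11 with RIF, against 9.79 and 9.46 with DMSO (log2 difference -5.40, adjusted p = 0.0284 from limma), and those of ilys-2 were 1.74 and 1.17 with RIF, against 4.55 and 3.11 with DMSO (log2 difference -2.38, adjusted p = 0.489). Both lists thus held members that fell and members that did not, and the call of ilys-2 was lost without RIF replicate 1 (-2.67) or RIF replicate 2 (-2.09). Values of ilys-4 were 7.01 and 6.36 with RIF, against 5.49 and 5.89 with DMSO (log2 difference 0.99, 1.99-fold), short of the threshold with all arrays and past it without RIF replicate 2 (1.32), where 1.77% of all probe sets rose. The log2 difference of ilys-3 was -1.87 and did not pass, and ilys-1 (0.19) and ilys-6 (0.17) were no brighter than the foreign controls. The list's median ran from -1.27 without RIF replicate 1 to -0.08 without RIF replicate 2.

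The lists of regulators and other effectors held few calls, as did all genes, of which 1.27% rose and 1.55% fell at the same threshold. Of 11 measured genes of the DBL-1 pathway, 0 rose and 0 fell, with a median log2 difference of 0.17 that was -0.03 without RIF replicate 1. Among 13 other regulators of immune or gut genes, 0 rose and 0 fell, and the median of 0.24 was 0.60 without DMSO replicate 1 and 0.12 without DMSO replicate 2. Of 8 genes listed for the p38 pathway, 1 rose, the small GTPase gene rab-1 (log2 difference 1.47, adjusted p = 0.584 from limma), and 0 fell, with a median of 0.17 that was 0.50 without RIF replicate 1. The call of rab-1 was lost when RIF replicate 1 (1.36), RIF replicate 2 (1.57) or DMSO replicate 2 (0.75) was left out. Of 10 small antimicrobial effectors from the spp, abf, cnc and nlp families, 0 rose and 0 fell, and the median of 0.11 was -0.38 without DMSO replicate 1 and 0.50 without DMSO replicate 2. In each of these lists some gene passed the threshold with 1 array left out, where the share of all probe sets past it changed as well.

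Levels of transcripts from other tissues were compared since the arrays read whole worms, in which fewer cells of a type and less RNA per cell cannot be told apart. With all 4 arrays, 1.27% of all genes rose and 1.55% fell. Of 12 measured intestinal markers, gtl-1 rose (log2 difference 1.05) and vha-6 fell (-1.23), and the mean level of the list was 5.28 to 5.49 on the RIF arrays and 5.30 to 5.49 on the DMSO arrays, with fat-7 alone within the pooled foreign control range. The mean levels of the intestinal list overlapped between the groups, and each of its calls was lost with some arrays left out (gtl-1 at 0.60 without RIF replicate 1, vha-6 at -0.72 without DMSO replicate 1). Of 5 markers of body wall muscle, 4 fell, and their mean level was 2.88 to 3.27 with RIF and 4.36 to 4.39 with DMSO, with unc-22 within the pooled foreign control range. The log2 differences were -1.87 for unc-54, a myosin heavy chain, -1.93 for unc-15, the paramyosin, -1.30 for the myosin light chain mlc-1 and -1.20 for the myosin heavy chain myo-3. The calls of unc-15 and mlc-1 held without each array in turn, whereas unc-54 passed only without RIF replicate 1 and myo-3 did not pass there (-0.98). Of 6 hypodermal markers, 2 fell, the cuticle collagens col-19 (-3.77) and dpy-13 (-1.86), and the mean level of the list was 3.91 to 4.77 with RIF and 5.40 to 5.72 with DMSO. Neither passed without RIF replicate 2, where the log2 difference was -3.01 for col-19 and -1.14 for dpy-13. The fall of col-19 held without each of the other arrays, and that of dpy-13 without RIF replicate 1 alone. With all 4 arrays, no marker of the pharynx, germ line, neurons or coelomocytes rose or fell. With 1 array left out, the median log2 difference ran from 0.03 to 0.41 in the pharynx list, from -0.65 to -0.21 in the germ line list, from 0.25 to 0.38 in the neuron list and from -0.46 to 0.04 in the coelomocyte list. The part of tissue make-up in the falls of the lys genes was not tested.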

How the data were processed

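The authors deposited RMA values on a log2 scale for 22625 probe sets on 4 Affymetrix arrays. RMA and Affymetrix Expression Console are listed in the submitters' processing notes, whereas the paper's methods give GeneSpring GX with default settings. The unpaired t-test used here as the methods' t-test is named there for experiments other than survival, without mention of the arrays. Spike-in controls were used to check the log base: cre minus bioC was 4.28 to 4.46, beside 4.32 from their nominal amounts in the standard mix. RMA compresses changes near background. After 77 controls were left out, lmFit and eBayes of limma 3.58.1 (R 4.3.3) compared RIF with DMSO, two-sided and with no filter on level, and p-values were adjusted by Benjamini-Hochberg over all 22548 probe sets. Of these, 20766 name a single gene, 887 several and 895 none, and 20701 were matched to current symbols, including every lys gene. A gene was represented by its probe set with the highest mean. Endings such as _s_at mark probes shared with other transcripts, which 6 of the 11 lys probe sets have. These are the probe sets of lys-2, lys-3, lys-4, lys-6 and lys-7 and the one that names lys-5 and lys-6.

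Alternatives were the methods' t-test, limma with a robust prior and an intensity trend, the replicate block, each array left out, quantile, median and ribosomal centring, a filter on dim probe sets, probe sets without shared endings, gene means and a 1.5-fold threshold. The fit was tested on simulated data. Every lys and measured ilys gene is named, and from other lists those past the threshold with all arrays. Also named are the markers fat-7 and unc-22, within the pooled foreign control range, and the 3 genes nearest in profile to the brightest lys gene past the threshold. Members and lists were chosen with earlier results of these data known. Protein and promoter sequences were not used here.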

Additional observations from a re-analysis of the deposited data

How the results depend on the processing

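No value of a lys gene changed sign under any alternative run. The 8 lower probe sets and 7 lower genes became 5 and 4 with the methods' t-test, where 0.577% of all probe sets fell. They became 3 and 3 among the 5 probe sets without endings for shared probes, where the median log2 difference was -1.01. Of all probe sets without such endings, 1.1% fell. With 1 array left out, 5 to 8 probe sets and 4 to 7 genes were lower, 0 to 1 probe sets and 0 to 1 genes were higher, and the median ran from -1.83 to -1.27. The lone higher gene was lys-3, without DMSO replicate 2. In these fits the group with a single array borrows its spread from the group with both. With an intensity trend and a robust prior, 1 probe set passed an adjusted p under 0.05, that of lys-7 (0.0178, and 0.0178 to 1 over the alternatives). The replicate numbers pair no arrays by their labels, and the differences between replicates of the 2 groups correlated at 0.10 over all probe sets. With the replicate block, 8 probe sets and 7 genes were lower and the median was -1.48, as without it. Of all probe sets, 1.68% fell with the block. When arrays were aligned on their ribosomal protein probe sets, the median of all probe sets was -0.13 and 24.9% of all called probe sets were higher, in place of 42.6%, while the lys median was -1.64 and lys-10 passed the threshold (-1.06). Each lys gene has 1 probe set of its own, so gene means kept each difference and call (adjusted p of lys-7 0.126). lys-9 could not be tested under the filter on dim probe sets. Probe sets with RIF values within the pooled foreign control range, those of lys-5, lys-6, lys-9 and lys-10 and the one that names lys-5 and lys-6, give bounds or no measure of a fall.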
